A study of Mus musculus with 5 samples.

Results

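The genes described here were 9 genes of the type 17 immune response in sorted dermal group 2 innate lymphoid cells (dILC2s) of mouse skin: *Il23r*, *Il12rb1*, *Il17a*, *Il17f*, *Il22*, *Il17re*, *Ahr*, *Maf* and *Cd163l1*. They were taken by gene symbol from a count table of 47729 genes, and all 9 were found. The 9 genes were selected on their difference between WT and *Rag1*-/- dILC2s in these same libraries, so that their own genotype differences are given as a description, with no test. Each gene is shown as CPM, the count scaled to the size of its library, and relative to *Ptprc*, which encodes the pan-leukocyte antigen CD45.

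The study compared dILC2s of C57BL/6 WT mice with dILC2s of *Rag1*-/- mice of the same background, which lack mature T and B cells because RAG1 is needed to assemble antigen receptor genes. By the methods, mice were 8 to 13 weeks old, cells were sorted from skin, and a library was made from pooled animals: 10 mice for each of 3 WT pools (numbered 5, 6 and 13) and 9 for each of 2 *Rag1*-/- pools (2 and 7). By the labels, the sorted cells received no stimulation before sequencing. The deposited labels count 16 *Rag1*-/- mice where the methods count 18. The cell type label of both *Rag1*-/- libraries reads type 3 innate lymphoid cells, whereas their titles, protocols and the study's methods describe dILC2s in both genotypes, and the latter reading is used here.

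Interleukin-23, sensed by a receptor made of IL-23R and the shared chain IL-12Rβ1, drives type 17 lymphocytes to make IL-17A, IL-17F and IL-22. The transcription factor MAF and the ligand sensor AHR act in the same cells, and the receptor-like protein SCART1, encoded by *Cd163l1*, is known from γδ T cells. In skin, IL-17 and IL-22 act on keratinocytes, which answer with chemokines, antimicrobial proteins and a wound-like keratin program, and the usual sources are γδ T cells, Th17 cells and type 3 innate lymphoid cells (ILC3s).

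The libraries held 32939428 to 39477243 counts in WT, 8050562 in *Rag1*-/- pool 2 and 38922750 in *Rag1*-/- pool 7. The smallest level that 3 counts can show was 0.373 CPM in the shallow pool 2 and at most 0.0911 CPM elsewhere. *Rag1* itself was counted 4 times in WT pool 5, 0 times in pool 6, 5 times in pool 13, 5 times in *Rag1*-/- pool 2 and 48 times in *Rag1*-/- pool 7. At 0.621 and 1.23 CPM, *Rag1*-/- pools 2 and 7 both stood above the WT pools (0 to 0.152 CPM). *Rag1* was not called (edgeR adjusted p = 0.0866). The cause of these counts was not tested, and genotypes are those of the labels throughout. All 26 genes of a pan-leukocyte list had a positive fold change and 19 were called higher, beside 3.57% of all genes tested. Their summed level was 1161 to 2714 CPM in WT and 7518 to 8663 CPM in *Rag1*-/-. A keratinocyte list of 15 genes took 3.02% to 4.25% of all counts in WT and 0.755% to 1.74% in *Rag1*-/-, with 6 genes called lower, beside 2.16% of all genes tested. These shares moved with genotype beside every result below, and their part in each was not tested. In such pooled RNA, fewer cells of a type and less RNA per cell cannot be told apart.

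The receptor of IL-23 came first among the genes. *Il23r* (chr6:67422932-67491855, minus strand, GRCm38) held 1.16, 1.29 and 1.40 CPM in WT pools 5, 6 and 13. In the pools labelled *Rag1*-/- it held 17.02 CPM (pool 2) and 12.2 CPM (pool 7). Both stood far above all WT pools, the lower of them by 8.73-fold over the highest WT pool. WT averaged 1.28 ± 0.119 CPM (SD, n = 3) and *Rag1*-/- 14.6 ± 3.40 CPM (SD, n = 2), a ratio of 11.4. The WT level rested on 45, 51 and 46 counts, and the exact 95% Poisson interval of its highest pool ended at 1.86 CPM, below the lower end of 11.1 CPM in *Rag1*-/- pool 7. Such intervals cover counting error only, and with *Il23r* selected on this difference they are no test of it.

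*Il12rb1* (chr8:70808449-70821424, plus strand) encodes the chain that the IL-23 receptor shares with the IL-12 receptor. It held 2.40, 4.69 and 5.49 CPM in WT pools 5, 6 and 13 and 32.4 and 19.9 CPM in *Rag1*-/- pools 2 and 7, again with no overlap. Its mean was 6.24-fold higher in the pools labelled *Rag1*-/- (WT 4.19 ± 1.61 CPM, SD, n = 3, *Rag1*-/- 26.2 ± 8.86 CPM, SD, n = 2). Per kilobase of transcript, the level of *Il12rb1* was 1.79, 3.14 and 3.41 times that of *Il23r* in WT pools 5, 6 and 13 and 1.65 and 1.41 times in *Rag1*-/- pools 2 and 7. The shared chain was thus the more abundant of the pair in every library, by a smaller ratio in both *Rag1*-/- pools than in any WT pool. The ratios of WT pool 5 (1.79) and *Rag1*-/- pool 2 (1.65) were close. The former rested on 93 counts of *Il12rb1* and 45 of *Il23r*, and no interval was computed for these ratios.

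The 3 cytokines were low in WT, at 1 to 39 counts in a library. *Il17a* (chr1:20730905-20734496, plus strand) held 0.129, 0.583 and 0.395 CPM in WT pools 5, 6 and 13, from 5, 23 and 13 counts. In *Rag1*-/- it held 124 counts in pool 2 (15.4 CPM) and 46 counts in pool 7 (1.18 CPM). Pool 7 exceeded the highest WT pool by 2.03-fold, and pool 2 exceeded pool 7 by 13-fold, the widest gap between the *Rag1*-/- pools of any of the 9 genes. The Poisson interval of pool 7, 0.865 to 1.58 CPM, overlapped that of WT pool 6, 0.369 to 0.874 CPM.

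*Il17f* (chr1:20777146-20790617, minus strand), the neighbour of *Il17a* on the chromosome, held 1.01, 0.633 and 0.516 CPM in WT pools 5, 6 and 13 and 39.4 and 14.9 CPM in *Rag1*-/- pools 2 and 7. Here both pools labelled *Rag1*-/- lay at least 14.8 times above every WT pool. WT averaged 0.718 ± 0.255 CPM (SD, n = 3) and *Rag1*-/- 27.1 ± 17.3 CPM (SD, n = 2), a ratio of 37.8. *Il17f* thus differed between the genotypes with either *Rag1*-/- pool, while the size of the *Il17a* difference rested on pool 2.

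*Il22* (chr10:118204942-118210047, plus strand) encodes a cytokine that acts mainly on epithelial cells. It held 0.593, 0.0253 and 0.486 CPM in WT pools 5, 6 and 13, the middle value being a single count, under the floor of 3 counts. In *Rag1*-/- pools 2 and 7 it held 23.4 and 6.73 CPM, from 188 and 262 counts. Both were above all WT pools, by at least 11.4-fold over the highest. Of the 50-base words in its transcripts, 41% also occur in the paralog *Iltifb*, which held 2 counts in *Rag1*-/- pool 2 and 0 elsewhere, so that reads fitting both copies may be missing from the *Il22* count and its absolute level is uncertain.

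**Figure D1:**
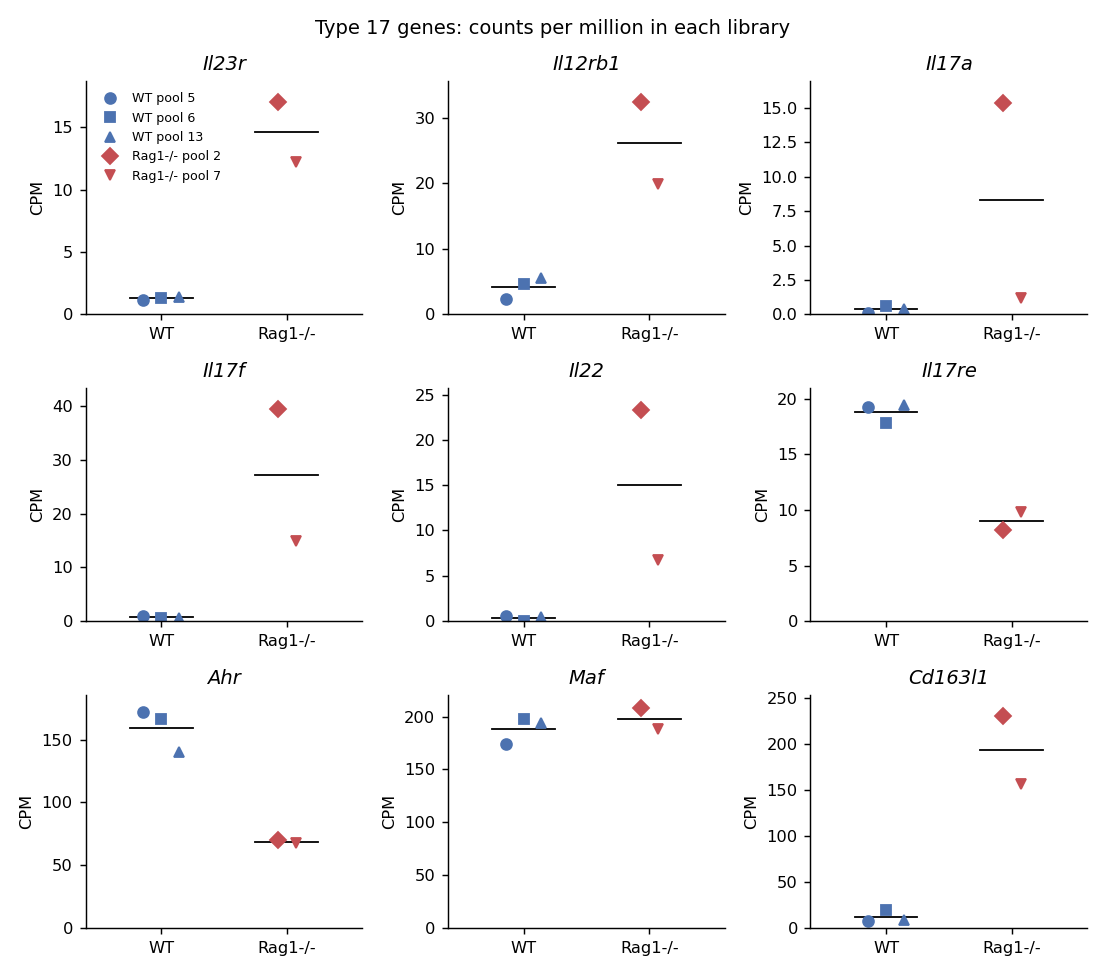
CPM (vertical axes, linear, from 0) of each of the 9 genes in the 3 WT pools (blue) and the 2 *Rag1*-/- pools (red), with a line at each group's mean. *Il23r*, *Il12rb1*, *Il17a*, *Il17f*, *Il22* and *Cd163l1* were above all WT pools in both *Rag1*-/- pools, *Il17re* and *Ahr* below, and *Maf* overlapped; *Il17a* was 15.4 CPM in pool 2 and 1.18 CPM in pool 7.

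The balance of the IL-17 genes was not a fixed property of either genotype. *Il17f* made up 88.6% of the *Il17a* and *Il17f* counts in WT pool 5 (95% Wilson interval 76% to 95%), 52.1% in WT pool 6 (38.3% to 65.5%) and 56.7% in WT pool 13 (39.2% to 72.6%). In *Rag1*-/- it made up 71.9% in pool 2 (67.5% to 75.9%) and 92.7% in pool 7 (90.3% to 94.4%). The genotypes overlapped, the intervals of the *Rag1*-/- pools did not, and *Il17f* held more counts than *Il17a* in each library. The WT shares rested on 44, 48 and 30 counts and were imprecise.

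**Figure D2:**
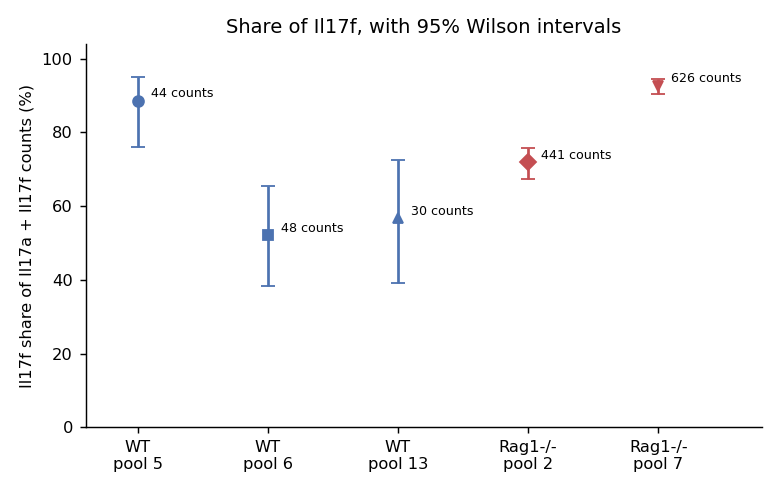
Share of *Il17f* among the summed *Il17a* and *Il17f* counts (vertical axis, percent) in each library, with 95% Wilson intervals as bars and the summed counts beside each point. The WT pools spread from 52.1% to 88.6% with wide intervals, and *Rag1*-/- pools 2 and 7 sat at 71.9% and 92.7% with intervals that did not meet.

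The bases before the start are shown for *Il17a*, *Il17f*, *Il23r* and *Cd163l1*, 4 of the 6 genes that were higher in both pools labelled *Rag1*-/-. RefSeq promoter windows (GRCm38.p6, 250 bases before the start) were at hand for 6 of the 9 genes, and were not used here for *Ahr*, *Maf* and *Il12rb1*. The windows of *Il22*, which 22 bases of an annotated exon of the gene overlap, and of *Il17re*, which lies within annotated exons of the gene, were searched and are not printed. Capitals mark AGGTCA (a half-site bound by nuclear receptors), TGCTGAC (an element bound by MAF factors), GCGTG (the core bound by AHR with ARNT) and TATAAA (the TATA box), searched on both strands. Each sequence reads 5′ to 3′ on the strand of its gene, *Il17a* at chr1:20730655-20730904 (plus), *Il17f* at chr1:20784271-20784494 (minus, without 26 bases that an annotated exon of the gene covers), *Il23r* at chr6:67491856-67492105 (minus) and *Cd163l1* at chr7:140218017-140218266 (plus).
Il17a: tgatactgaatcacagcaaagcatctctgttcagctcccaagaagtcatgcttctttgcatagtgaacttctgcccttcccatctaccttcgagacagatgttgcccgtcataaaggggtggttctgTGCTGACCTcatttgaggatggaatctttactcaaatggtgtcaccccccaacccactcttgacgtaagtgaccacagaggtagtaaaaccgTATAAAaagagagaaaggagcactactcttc
Il17f: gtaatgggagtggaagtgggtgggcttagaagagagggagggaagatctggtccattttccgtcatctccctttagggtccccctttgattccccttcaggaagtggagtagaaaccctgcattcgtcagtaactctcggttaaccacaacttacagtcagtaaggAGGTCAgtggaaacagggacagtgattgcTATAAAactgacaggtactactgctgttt
Il23r: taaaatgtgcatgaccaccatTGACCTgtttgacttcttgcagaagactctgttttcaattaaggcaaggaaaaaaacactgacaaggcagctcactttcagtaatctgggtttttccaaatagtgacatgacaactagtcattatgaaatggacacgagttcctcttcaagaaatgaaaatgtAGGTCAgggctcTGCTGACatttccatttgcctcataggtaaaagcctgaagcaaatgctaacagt
Cd163l1: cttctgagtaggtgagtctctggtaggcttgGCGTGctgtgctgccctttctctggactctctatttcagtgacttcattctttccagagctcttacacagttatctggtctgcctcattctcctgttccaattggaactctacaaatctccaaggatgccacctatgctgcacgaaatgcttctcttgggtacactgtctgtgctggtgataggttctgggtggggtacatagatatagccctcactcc

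AGGTCA was present in the windows of *Il17a* (120 to 115 bases before the start, on the reverse strand), *Il17f* (58 to 53 bases before) and *Il23r*, which held it at 66 to 61 bases before the start and once more, reversed, at 229 to 224. Of 32851 RefSeq windows of this length, 14% held it. TGCTGAC, found in 3.81% of windows, was present in *Il17a*, where it ran into the AGGTCA match, and in *Il23r*, 54 to 48 bases before the start. *Il17a* and *Il17f* had TATAAA, found in 12.4% of windows, close to the start. The *Cd163l1* window held GCGTG, found in 28.2% of windows, and none of the others. The *Il22* window held TATAAA and no AGGTCA. TTCNNNGAA, the spacing bound by STAT factors and present in 7.02% of windows, was in none of the 6 windows. These are matches of letters, not binding sites.

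*Il17re* (chr6:113458484-113470758, plus strand) encodes the receptor chain for IL-17C, which epithelial cells also carry. It held 19.2, 17.8 and 19.4 CPM in WT pools 5, 6 and 13 and 8.20 and 9.84 CPM in *Rag1*-/- pools 2 and 7. All WT pools lay above both *Rag1*-/- pools, and the mean was 2.09-fold lower in *Rag1*-/- (WT 18.8 ± 0.884 CPM, SD, n = 3, *Rag1*-/- 9.02 ± 1.16 CPM, SD, n = 2). Its difference was opposite in sign to that of the IL-23 receptor gene.

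*Ahr* (chr12:35497974-35535038, minus strand) encodes the aryl hydrocarbon receptor, a ligand-activated transcription factor present in lymphocytes and keratinocytes. It held 172, 166 and 140 CPM in WT pools 5, 6 and 13 and 69.7 and 68.0 CPM in *Rag1*-/- pools 2 and 7. The groups did not overlap, the *Rag1*-/- pools differed from each other by 1.02-fold only, and the mean was 2.32-fold lower in *Rag1*-/- (WT 159 ± 17.1 CPM, SD, n = 3, *Rag1*-/- 68.9 ± 1.17 CPM, SD, n = 2). *Ahr* shares 127 exonic bases with *Gm48236* on the other strand, and the library kit does not mark strand, so that reads there cannot be assigned.

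*Maf* (chr8:115682942-115707794, minus strand) encodes c-MAF, a transcription factor of IL-17-producing γδ T cells and ILC3s. It held 174, 198 and 194 CPM in WT pools 5, 6 and 13 and 209 and 188 CPM in *Rag1*-/- pools 2 and 7. The groups overlapped, with means of 189 ± 13.1 CPM (SD, n = 3) and 198 ± 14.6 CPM (SD, n = 2). It shares 440 exonic bases with *Gm15655* on the other strand, which held 0 counts in every library.

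*Cd163l1* (chr7:140218267-140231145, plus strand) had the highest level per kilobase among the genes that were higher in *Rag1*-/-. It held 7.53, 19.0 and 8.17 CPM in WT pools 5, 6 and 13 and 231 and 157 CPM in *Rag1*-/- pools 2 and 7. The lower *Rag1*-/- pool was 8.26 times the highest WT pool, and the means were 11.6 ± 6.43 CPM (SD, n = 3) and 194 ± 52.3 CPM (SD, n = 2). With 1857 and 6100 counts in the *Rag1*-/- pools, it was measured with more reads than *Il23r* or any of the 3 cytokines.

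Set in order per kilobase of transcript, the WT levels were led by *Maf* (58.6 ± 4.09 CPM per kilobase, SD, n = 3), then *Ahr* (28.7 ± 3.10), *Il17re* (6.40 ± 0.299) and *Cd163l1* (3.34 ± 1.86), each apart from the next. *Il12rb1* (1.46 ± 0.558) followed, and it, *Il17f*, *Il23r*, *Il22* and *Il17a* could not be told from their neighbours in the order, with means of *Il17f* and below at 0.315 to 0.610 CPM per kilobase. In *Rag1*-/- *Maf* (61.5 ± 4.53, SD, n = 2) and *Cd163l1* (56.1 ± 15.1) overlapped at the top. *Il17f* (23.0 ± 14.7), *Il22* (13.5 ± 10.6) and *Ahr* (12.4 ± 0.212) formed the next overlapping run, then *Il12rb1*, *Il17a* and *Il23r* (9.11 to 5.87), with *Il17re* (3.07 ± 0.396) last. In *Rag1*-/- both pools of *Cd163l1*, *Il17f*, *Il22*, *Il12rb1* and *Il23r* stood above *Il17re*, which in WT stood above them all.

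Across all genes, the edgeR quasi-likelihood test on 19011 genes that passed a filter on low counts called 3.57% higher and 2.16% lower in *Rag1*-/-, 5.73% in all (log2 fold change above 1 or under -1 with a Benjamini-Hochberg adjusted p under 0.05). All 9 genes passed the filter. Of these, 5 met the thresholds as higher (*Il23r*, *Il12rb1*, *Il17f*, *Il22* and *Cd163l1*), 2 as lower (*Il17re* and *Ahr*) and 2 did not (*Il17a* and *Maf*), and since the genes were selected on this contrast nothing is read from that count. The fitted log2 fold changes were 5.35 for *Il22* (standard error 0.94), 5.23 for *Il17f* (0.50), 4.44 for *Il17a* (1.06), 4.08 for *Cd163l1* (0.45), 3.53 for *Il23r* (0.30) and 2.66 for *Il12rb1* (0.40). They were 0.10 for *Maf* (0.19), -1.02 for *Il17re* (0.23) and -1.18 for *Ahr* (0.20). Without *Rag1*-/- pool 2 the values were 1.74 for *Il17a*, 4.27 for *Il22*, 4.44 for *Il17f* and 3.32 for *Il23r*. The libraries of the genotypes did not overlap for 45.9% of all genes tested.

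*Ptprc* stood higher in both *Rag1*-/- pools than in WT, so that division by it lowers the log2 difference of every gene. Relative to *Ptprc* the differences were therefore smaller for the genes that were higher and larger for those that were lower. *Ptprc* held 122, 421 and 341 CPM in WT pools 5, 6 and 13 and 1177 and 623 CPM in *Rag1*-/- pools 2 and 7, and was not called (log2 fold change 1.63, edgeR adjusted p = 0.103). Per 1000 *Ptprc* counts, *Il23r* in WT held 9.52 (pool 5), 3.07 (pool 6) and 4.10 (pool 13), and in *Rag1*-/- 14.5 (pool 2) and 19.6 (pool 7). The genotypes still did not overlap for *Il23r*, and the WT pool with the least *Ptprc*, pool 5, came closest to *Rag1*-/-.

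*Il12rb1* held 19.7, 11.1 and 16.1 counts per 1000 *Ptprc* counts in WT pools 5, 6 and 13 and 27.6 and 31.9 in *Rag1*-/- pools 2 and 7. *Il17f* held 8.25, 1.51 and 1.51 in WT and 33.5 and 23.9 in *Rag1*-/-. For *Il22* the values were 4.87, 0.0602 and 1.43 in WT and 19.9 and 10.8 in *Rag1*-/-. All 3 genes kept both *Rag1*-/- pools above every WT pool. *Il17a* held 1.06, 1.39 and 1.16 in WT and 13.1 and 1.90 in *Rag1*-/-, so that pool 7 stood just above WT, and relative to the summed leukocyte list *Il17a* overlapped between the genotypes.

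*Cd163l1*, with 61.8, 45.1 and 24.0 counts per 1000 *Ptprc* counts in WT and 196 and 252 in *Rag1*-/-, remained well apart. *Ahr* held 1412, 396 and 411 in WT and 59.2 and 109 in *Rag1*-/-. *Il17re* held 158, 42.3 and 57.0 in WT and 6.97 and 15.8 in *Rag1*-/-. *Maf*, which overlapped in CPM, was now lower in both *Rag1*-/- pools (177 and 302) than in every WT pool (1427, 471 and 570). Its mean log2 difference on this scale was -1.65, while scaling all libraries on *Ptprc* moved the median of all genes by -1.89. The share of all genes without overlap is given for CPM only. WT pool 5, the library with the least *Ptprc*, was the highest WT pool on this scale for 8 of the 9 genes, all but *Il17a*.

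**Figure D3:**
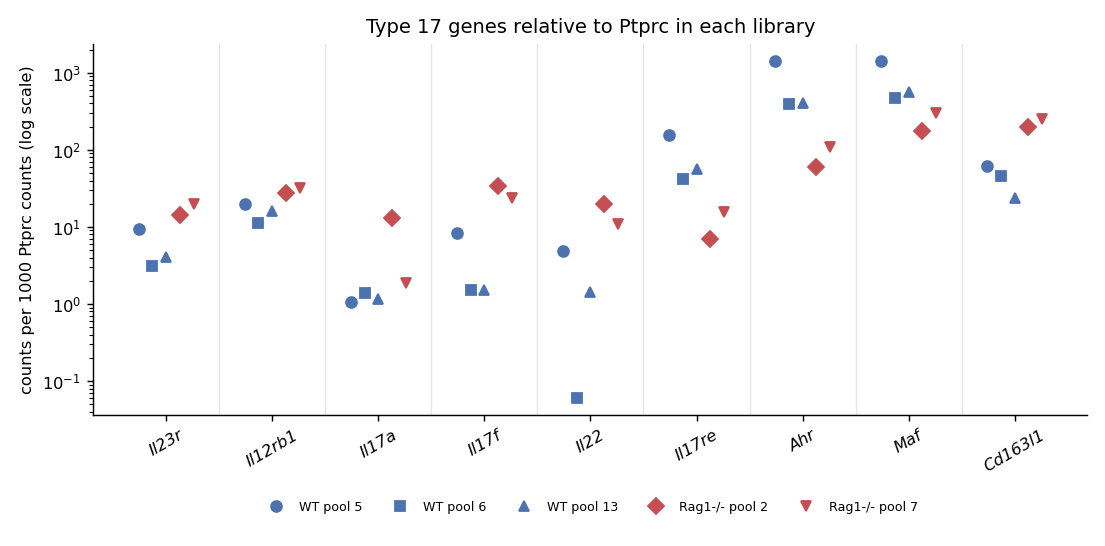
Counts of each gene per 1000 *Ptprc* counts (vertical axis, log scale) in the 3 WT pools (blue) and the 2 *Rag1*-/- pools (red). Both *Rag1*-/- pools were above every WT pool for 6 genes and below for *Il17re*, *Ahr* and *Maf*, and *Il17a* in pool 7 (1.90) was close to WT pool 6 (1.39). Scaling all libraries on *Ptprc* moved the median log2 fold change of all genes by -1.89.

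On the log2 scale, the mean difference relative to *Ptprc* (0.5 added to each count) was 4.08 for *Il22*, 3.38 for *Il17f*, 2.45 for *Cd163l1*, 2.00 for *Il17a*, 1.76 for *Il23r* and 0.96 for *Il12rb1*. It was -1.65 for *Maf*, -2.78 for *Il17re* and -2.93 for *Ahr*. The value for *Il22* was 2.44 without WT pool 6 and 5.33 without WT pool 5. The median over the 9 genes was 1.76, against 3.53 for the fitted log2 fold changes. Scaling all libraries on *Ptprc* or on the leukocyte list moved the median of all genes by -1.89 and -2.12, so that directions for genes with smaller differences depend on the scale chosen.

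The rest of the pathway was taken from a list of 55 other type 17 genes, of which 52 passed the filter. There 12 were called higher, 1 lower and 39 were not called, with a median log2 fold change of 0.19, against 0.02 over all genes tested. The same list gave 0 higher and 28 lower with libraries scaled on the leukocyte genes, and 0 in either direction scaled on *Ptprc*. Of all 19011 genes tested, the leukocyte scaling called 16 higher and 12916 lower, and the *Ptprc* scaling 0 higher and 462 lower. With any single WT pool or *Rag1*-/- pool 2 left out, edgeR called no gene of the whole table at these thresholds, while 3521 to 5200 genes had an unadjusted p under 0.05.

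Among 27 tested ligands and receptors, 6 were called higher and 0 lower by edgeR. At an unadjusted p under 0.05 there were 10 higher and 5 lower, beside 26.4% of all genes tested (5022 of 19011) in either direction. DESeq2 tested 30 and called 9 higher and 3 lower, beside 4% and 4.2% of the 29908 genes it tested. *Ccr6*, the chemokine receptor of type 17 cells, rose from 20.8 ± 8.33 CPM (SD, n = 3) to 124 ± 24.8 CPM (SD, n = 2), a log2 fold change of 2.60 (adjusted p = 0.0306, edgeR). *Csf2*, which encodes GM-CSF, rose by 3.22 on the log2 scale, *Ltb* and *Lta*, the lymphotoxin genes of ILC3s, by 2.54 and 2.37, and the cytokine receptor genes *Il27ra* and *Il21r* by 2.41 and 2.08 (adjusted p from 0.0307 to 0.0462, edgeR). Under the leukocyte and *Ptprc* scalings all 6 called genes kept positive fold changes, but none was called. Their log2 values ran from 0.14 (*Il21r*) to 1.33 (*Csf2*) with the leukocyte list as reference. With *Ptprc* as reference they ran from 0.39 (*Il21r*) to 1.51 (*Csf2*). The receptor chains of IL-17 and IL-22 were named after their values were seen, and edgeR called none of the 4 listed next. *Il17ra*, the shared IL-17 receptor chain, held 131, 154 and 132 CPM in WT pools 5, 6 and 13 and 209 and 171 CPM in *Rag1*-/- pools 2 and 7. *Il17rc*, the partner chain of IL-17RA, held 120, 85.4 and 59.3 CPM in WT pools 5, 6 and 13 and 21.7 and 44.8 CPM in *Rag1*-/- pools 2 and 7, and DESeq2 called it lower. *Il22ra1*, the epithelial receptor of IL-22, held 12.5, 6.99 and 7.23 CPM in WT and 0.870 and 5.96 CPM in *Rag1*-/-. *Il10rb*, the chain that the IL-22 receptor shares with the IL-10 receptor, held 13.97, 21.8 and 25.5 CPM in WT and 45.1 and 43.4 CPM in *Rag1*-/- (log2 fold change 1.15, edgeR adjusted p = 0.0544), and DESeq2 called it higher. The most abundant genes not called by edgeR were *Il6st*, *Il6ra* and *Il18r1*, with log2 fold changes of -0.78, -0.27 and 1.88, the last of which DESeq2 called higher (adjusted p = 0.00317). *Il23a* and *Il12b*, which encode the subunits of IL-23 itself, were at most 3.04 CPM in any library and overlapped.

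Among 25 regulators, 6 were called higher (*Runx3*, *Tox*, *Batf*, *Irf4*, *Nfil3* and *Tyk2*) and *Prdm1* lower. *Runx3*, a factor of innate and cytotoxic lymphocytes, rose by 1.80 on the log2 scale, *Tox* by 1.93, *Batf* and *Irf4*, partners at composite sites in type 17 genes, by 1.63 and 1.56, *Nfil3* by 1.09 and the kinase gene *Tyk2*, which signals below IL-12Rβ1, by 1.08 (adjusted p from 0.0309 to 0.0433, edgeR). The fold changes of *Batf*, *Irf4*, *Nfil3* and *Tyk2* turned negative with libraries scaled on *Ptprc* or the leukocyte genes, and that of *Runx3* on the leukocyte genes. *Prdm1*, which encodes BLIMP1, fell by 1.23 (adjusted p = 0.0481, edgeR). *Rora*, *Bhlhe40* and *Stat3*, the most abundant genes not called, had log2 fold changes of 0.94, 0.47 and 0.19.

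Partner and target genes of AHR were read beside *Ahr*. Of 10 listed genes 9 passed the filter and 0 were called by edgeR. An unadjusted p under 0.05 was met by 1 higher and 2 lower, beside 26.4% of all genes tested in either direction. DESeq2 called 1 of the listed genes as higher. *Cyp1a1*, the classical AHR target, held 3.27, 7.98 and 15.9 CPM in WT pools 5, 6 and 13 and 0.124 and 3.70 CPM in *Rag1*-/- pools 2 and 7. It was not called (log2 fold change -2.01, edgeR adjusted p = 0.263). The value in pool 2 was a single count and the groups overlapped at pool 7. *Tiparp*, *Arnt* and *Aldh3a1*, the most abundant of the list, had log2 fold changes of -0.26, 0.10 and -0.91.

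Genes that keratinocytes raise under IL-17 or IL-22 had a median log2 fold change of -0.014. Of 18 tested, 1 was called higher, beside 3.57% of all genes. This gene, *Cxcl3*, encodes a neutrophil chemokine (WT 2.78 ± 0.272 CPM, SD, n = 3, *Rag1*-/- 14.8 ± 5.95 CPM, SD, n = 2, log2 fold change 2.42, adjusted p = 0.0306, edgeR). Its log2 fold change was 0.33 scaled on the leukocyte genes and 0.48 scaled on *Ptprc*, and it was called under neither scaling. None of the 18 was called lower by edgeR. An unadjusted p under 0.05 was met by 3 higher and 3 lower, beside 26.4% of all genes tested in either direction. With libraries scaled on the leukocyte genes 11 were called lower, beside 12916 of all 19011 genes tested. DESeq2 called *Cxcl3* higher and *Krt16* and *Krt17* lower. *Krt17*, a keratin of stressed epidermis, had a log2 fold change of -1.51 and was not called by edgeR, as were *Socs3* (-0.45) and *Cxcl1* (0.14). The antimicrobial genes *S100a8*, *S100a9*, *Lcn2* and *Defb14*, named after their values were seen, were not called. *S100a8* held 3.53, 0.456 and 2.61 CPM in WT pools 5, 6 and 13 and 12.9 and 4.03 CPM in *Rag1*-/- pools 2 and 7, and *S100a9* 4.23, 0.177 and 6.19 CPM in WT and 36.8 and 6.94 CPM in *Rag1*-/-. Pool 7 lay just above the highest WT pool for both, and *Lcn2* and *Defb14* overlapped.

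Markers of the cells that could carry these transcripts were read beside them. The ILC2 list of 20 genes had positive fold changes throughout, with 4 called, beside 3.57% of all genes tested called higher. Its summed level was 1292, 2698 and 2204 CPM in WT pools 5, 6 and 13 and 6505 and 4047 CPM in *Rag1*-/- pools 2 and 7. *Gata3*, the lineage factor of ILC2s, held 199 to 319 CPM in WT and 558 and 369 CPM in *Rag1*-/-, and *Il1rl1*, the IL-33 receptor gene, 8.17 to 52.1 CPM and 161 and 40.4 CPM, so that both defining genes were present in all pools and *Il1rl1* overlapped. The ILC3 list of 12 genes had 9 positive fold changes and 5 genes called higher, beside 3.57% of all genes tested, and 3 of the 5 are *Ccr6*, *Ltb* and *Lta* above. *Cxcr5*, *Il1r1* and *Nrp1* had log2 fold changes of -1.23, -0.31 and -0.15 and were not called. The summed level of the list was 352 to 490 CPM in WT and 1267 and 988 CPM in *Rag1*-/-. The leukocyte list rose beside it, from 1161 to 2714 CPM in WT to 8663 and 7518 CPM in *Rag1*-/- pools 2 and 7, as did the ILC2 list. In this sum *Kit*, also a mast cell marker, held 52.9, 179.5 and 127 CPM in WT pools 5, 6 and 13 and 534 and 336 CPM in *Rag1*-/- pools 2 and 7. *Ncr1*, the marker of a subset of ILC3s and of natural killer cells, held 0.155, 0.431 and 0.0911 CPM in WT and 0.994 and 0.899 CPM in *Rag1*-/- pools 2 and 7, above all WT pools, and was not called. The list of 9 natural killer cell and ILC1 markers had 9 positive fold changes and 2 genes called higher (*Gzma* and *Prf1*), beside 3.57% of all genes tested. Its summed level was 29.4 to 95.6 CPM in WT and 223 and 262 CPM in *Rag1*-/- pools 2 and 7.

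Markers of γδ T cells were divided. *Trdc*, the constant segment of the δ chain, held 15.3, 23.8 and 19.9 CPM in WT pools 5, 6 and 13 and 24.8 and 19.2 CPM in *Rag1*-/- pools 2 and 7, with overlap. *Tcrg-C1* (3.94 to 6.11 CPM in WT, 5.59 and 4.06 CPM in *Rag1*-/-) and *Sox13*, a factor of IL-17-producing γδ T cells (6.94 to 11.5 CPM in WT, 5.96 and 8.32 CPM in *Rag1*-/-), overlapped as well. Of 9 tested genes of this list, *5830411N06Rik* and *Tcrg-C4* were called higher and *Tcrg-V5*, the variable segment of epidermal γδ T cells, lower. Of all genes tested, 3.57% were called higher and 2.16% lower. *5830411N06Rik*, a scavenger receptor gene of the same family as *Cd163l1*, held 28.5, 101 and 72.7 CPM in WT and 625 and 420 CPM in *Rag1*-/- pools 2 and 7.

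By the study's methods dILC2s were gated as CD45+ CD90hi cells apart from those with a CD2 or CD3 signal. Of T cell markers, *Cd3e* overlapped (5.46 to 7.98 CPM in WT, 9.44 and 7.43 CPM in *Rag1*-/-), while *Trac*, the constant segment of the α chain, was called higher (1.78 to 3.04 CPM in WT, 13.04 and 6.91 CPM in *Rag1*-/-). *Trbc2*, a constant segment of the β chain, was called higher too (7.97, 16.3 and 19.7 CPM in WT, 80.1 and 73.8 CPM in *Rag1*-/-), and *Trbc1* was not, at 9.82, 47.7 and 38.2 CPM in WT and 154 and 126 CPM in *Rag1*-/-. In the CD3 complex *Cd3g* and *Cd247* were called higher and *Cd3d* and *Cd3e* were not, and *Cd8b1* was at 0 in 4 of 5 libraries. These calls stand beside 3.57% of all genes tested called higher. Of 7 tested genes in the αβ T cell list, 6 had positive fold changes, and *Cd5* had a negative one and was not called. *Cd5* held 3.58, 2.61 and 2.00 CPM in WT pools 5, 6 and 13 and 1.37 and 0.668 CPM in *Rag1*-/- pools 2 and 7. Myeloid, mast cell and fibroblast lists of 12, 7 and 6 genes had 0 called genes each by edgeR. *Krt14*, the basal keratinocyte keratin, averaged 5510 ± 535 CPM (SD, n = 3) in WT pools and 2420 ± 889 CPM (SD, n = 2) in *Rag1*-/- pools, beside *Ahr* and *Il17re*. By the paper, *Rag1*-/- mice lack mature T and B cells, and the source of the T cell receptor transcripts in their pools was not tested. The part of any of the listed cell types in the type 17 values was not tested.

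**Figure D4:**
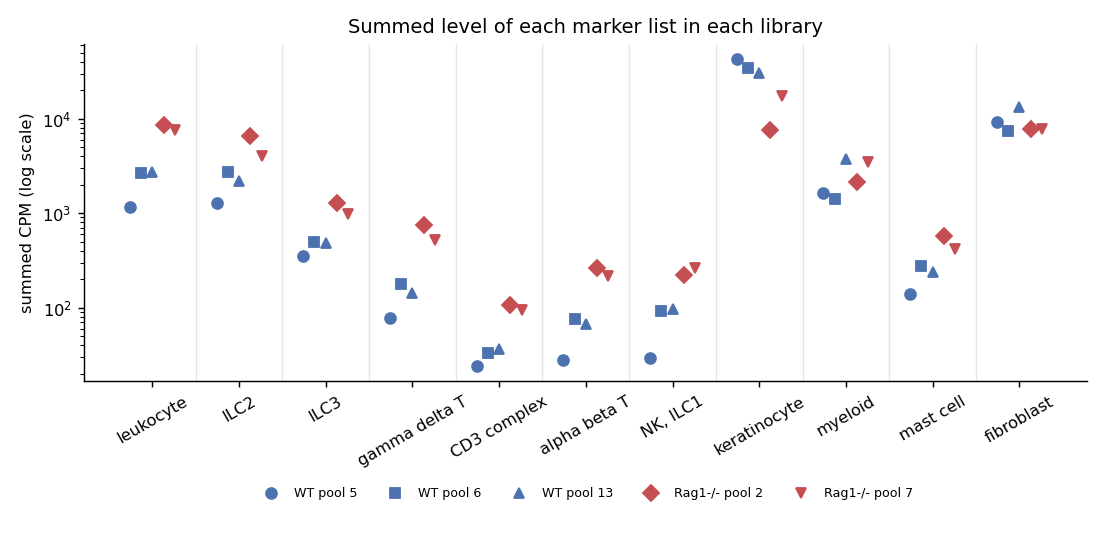
Summed level of each marker list (vertical axis, CPM, log scale) in the 3 WT pools (blue) and the 2 *Rag1*-/- pools (red). The leukocyte list (1161 to 2714 CPM in WT, 7518 to 8663 CPM in *Rag1*-/-), the ILC2 list and the ILC3 list stood higher in both *Rag1*-/- pools, the keratinocyte list lower, and myeloid and fibroblast lists overlapped.

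The genes whose pattern over the 5 libraries was nearest to that of *Il23r* (root mean square difference of centred log2 CPM) were *Gm36070* (0.141), *Cd70* (0.216) and *Gzmc* (0.239). *Cd70*, a ligand of the TNF family, held 1.80, 2.66 and 2.55 CPM in WT pools 5, 6 and 13 and 22.5 and 17.9 CPM in *Rag1*-/- pools 2 and 7. *Cd163l1* was nearest to *Tdrd9* (0.270), *Madcam1* (0.430) and *Gzmc* (0.484), the last a granzyme gene shared with *Il23r*. The cytokines had no near match: the closest to *Il17f* were *Klra7* (0.631), *Retnlg* (0.639) and *Madcam1* (0.735), and the closest to *Il22* were *Gm9844* (1.18) and *Retnlg* (1.19). *Klra7*, *Retnlg* and *Madcam1* held at most 2 counts in any WT library.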

How the data were processed

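Poly(A) RNA of 5 pools of sorted dILC2s was sequenced by the authors in single 50-base reads. Alignment was to GRCm38 by STAR 2.5 and counting by featureCounts 1.5.0-p1, and the authors deposited these counts per gene as raw values. The labels name annotation release 103 and the paper release 84. The authors also deposited a signal per gene, the counts scaled by size factors, which served as an alternative only. Gene lengths in the deposited table were used for levels per kilobase.

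The counts were tested across all genes by the quasi-likelihood test of edgeR 4.0.16 (R 4.3.3) after its filterByExpr and TMM steps, and called where the log2 fold change was above 1 or under -1 with a Benjamini-Hochberg adjusted p under 0.05. Total counts per library were 8050562 to 39477243, and intervals cover counting error only. Groups were taken from the library titles. The 9 genes and all lists were chosen with earlier results of these data known. Named beside the 9 genes were all called genes of the pathway lists, the 3 most abundant genes not called of each list, the defining markers and the nearest patterns, with some genes not reported here. The alternatives were DESeq2 1.42.0, limma 3.58.1 on the deposited signal (pseudocount 1, mean of at least 10), RLE scaling, library size alone, scaling on 26 leukocyte genes or on *Ptprc*, no filter, a minimum of 10 counts per library, calls by adjusted p alone, thinning to 8050562 counts and each library left out. The test was checked on simulated counts. Promoter windows are from RefSeq, and overlaps and shared 50-base words from GENCODE M21 transcripts. Pools are separate groups of mice by the paper.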

Additional observations from a re-analysis of the deposited data

How the results depend on the processing

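No paired analysis was possible because the WT pools (5, 6 and 13) and the *Rag1*-/- pools (2 and 7) share no replicate numbers. Counts below are for the other type 17 genes (12 higher and 1 lower as reported), the epidermal response genes (1 higher, 0 lower) and the AHR genes (0 called). The number of other type 17 genes called lower was 4 with DESeq2 and without a filter, 2 with RLE scaling, library size alone, limma on the deposited signal or at least 10 counts in every library, and 0 on *Ptprc*. Epidermal genes called lower were 2 with DESeq2 and 3 without a filter, which called 3 higher. AHR genes called were 1 with DESeq2, without a filter, with at least 10 counts in every library and after thinning. Scaling on the leukocyte genes gave 0 higher and 28 lower other type 17 genes, 0 higher and 11 lower epidermal genes and 6 AHR genes. Of all 19011 genes tested, that scaling called 16 higher and 12916 lower. Scaling on *Ptprc* gave 0 higher of either list and 0 higher of all genes tested.

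The median log2 fold change of the 9 genes was 3.53 as reported, 1.44 scaled on the leukocyte genes, 1.63 scaled on *Ptprc* and 2.62 with at least 10 counts in every library, which kept 7 of the 9. With a library left out it ran from 2.32 (without *Rag1*-/- pool 2) to 3.67 (without *Rag1*-/- pool 7), the other type 17 genes called higher from 0 to 10 and lower from 0 to 8, epidermal genes called higher from 0 to 1 and lower from 0 to 4, and AHR genes called from 0 to 1. The median relative to *Ptprc* (1.76) was 1.06 to 1.95 with a library left out, 1.50 over the leukocyte list and 2.10 over the ILC2 list. No member met the thresholds scaled on *Ptprc*, and *Il17a* met them with DESeq2. Since the 9 genes were selected on this contrast, nothing is read from these calls.

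Some directions reversed under a scaling. Scaled on the leukocyte genes, log2 fold changes were -0.24 for *Ptprc*, -0.18 for *Runx3*, -0.98 for *Nfil3*, -0.35 for *Batf*, -0.51 for *Irf4*, -1.05 for *Tyk2*, -1.07 for *Rora*, -1.66 for *Bhlhe40*, -1.97 for *Stat3*, -2.05 for *Arnt* and -1.98 for *Cxcl1*. Scaled on *Ptprc*, they were -0.72 for *Nfil3*, -0.049 for *Batf*, -0.36 for *Irf4*, -0.88 for *Tyk2*, -0.90 for *Rora*, -1.49 for *Bhlhe40*, -1.75 for *Stat3*, -1.87 for *Arnt* and -1.70 for *Cxcl1*. With a library left out, *Arnt* ran from -0.064 (without *Rag1*-/- pool 2) to 0.20 and *Cxcl1* from -0.20 (without *Rag1*-/- pool 7) to 0.38. *Ptprc* and the leukocyte genes stood higher in *Rag1*-/-, so that both scalings lowered the median log2 fold change of all genes. For the other changes the cause was not tested. The depth of *Rag1*-/- pool 2 limits *Cyp1a1* and *Il22ra1*, and the WT counts of 1 to 39 limit the 3 cytokines.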
